A study of Mus musculus with 4 samples.

Results

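The comparison described here sets the colon of mice given TNBS mixed with zingerone against the colon of mock mice. It asks which genes were apart from the mock level on the zingerone array and which lay past it. It rests on 2 of the 4 arrays of the study, 1 for each side. The other arrays, of TNBS alone and of TNBS with ginger extract, give the levels between which these differences are read. All mice were female; the strain is labelled BALB/c for the mock sample and BALC/c for the other 3. In all, 24 mice formed 4 groups of 6, and colons were taken on day 7. Mock mice received vehicle only, 0.1 ml with 50% ethanol, so ethanol is common to all groups. The other groups received 250 mg/kg TNBS (trinitrobenzene sulfonic acid) in that vehicle, alone, with ginger extract or with zingerone. Zingerone was given in various amounts; which amount the mice behind the array received, and whether its RNA came from 1 mouse or a pool, is not stated in the labels.

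TNBS is a hapten: ethanol opens the epithelial barrier, TNBS binds to proteins of the tissue, and an immune reaction with ulcers and neutrophil infiltration follows. Zingerone is a phenolic ketone that forms from gingerol when ginger is dried or cooked. Injured colon epithelium and macrophages release chemokines that draw neutrophils in. As the tissue heals, the neutrophils disappear and the surface epithelium, which absorbs salt and water, is rebuilt from the crypts.

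With 1 array a side there is no replicate, so the differences below carry neither an error nor a p-value, and precision is limited by this number of arrays. The values are Cy3 intensities on a linear scale, and a difference is the log2 intensity on the zingerone array minus that on mock, so 1 unit is a 2-fold difference. Levels given as a series of 4 follow the order mock, TNBS, ginger, zingerone, pairs are mock and zingerone, and the value in brackets after them is this difference. A gene counted as measured where its level was at or above the named-probe median of either array (270.5 on mock, 272 on zingerone), which held for 9427 of 16637 named genes. A dim gene can pass through the array on which it is high, so the medians of the main lists are also given over all their members that have a probe left. Of these, 7471 rest on 1 probe. Genes of the labelled tissue were present: 29 of 35 absorptive colonocyte genes and 20 of 22 goblet cell genes on the arrays were measured. None of the 5 eosinophil markers was, and 6 of 10 exocrine pancreas genes were.

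Most genes were close to mock on the zingerone array: 88% of the measured genes lay within 1.5-fold of it. The median difference was 0.01. The arrays have nearly the same sorted values, so a small median difference follows from that and does not measure closeness to mock. At least 2-fold higher than mock were 140 genes (1.49% of those measured), and at least 2-fold lower were 98 genes (1.04%), which makes 238 genes (2.52%) in all. On the TNBS array, set against the same mock array over the same genes, 450 were higher (4.77%) and 447 lower (4.74%), or 897 (9.52%) together. Among the 140 higher genes, 52 were below the named-probe median on mock, and 18 of the 98 lower genes were below it on zingerone. The lowest of all intensities is 74.2, so background seems still to be in the values, which would understate the folds of such dim genes. They passed the filter through the array on which they were high, which can overstate folds. Which effect is larger is not known.

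The 238 genes were sorted by where the TNBS array lay. Most of them, 152 genes (96 higher and 56 lower), were also at least 2-fold from mock on the TNBS array and on the same side; they are called here the genes that stayed apart. They are 63.9% of the 238 genes and 16.9% of the 897 genes apart on TNBS. In contrast, 493 of those 897 genes were within 0.5 log2 of mock on zingerone. Another 37 genes (6 higher, 31 lower) were on the same side of mock on TNBS by 0.5 to 1 log2, and 47 (36 higher, 11 lower) were within 0.5 log2 of mock on TNBS. Only 2 genes, Car1 and Mettl7b, were 2-fold past mock with TNBS more than 0.5 log2 from mock on the opposite side. These classes compare arrays that share the mock array, so a mock level that is off moves the TNBS and zingerone differences together. The arrays are of different mice, all on day 7. Staying apart or going past mock thus describes levels and not a course over time.

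The stayed-apart genes differed between the directions. The 96 higher genes had a median of 1.59 on zingerone, 1.54 on ginger and 2.80 on TNBS, all against mock, and 13 of them were farther from mock on zingerone than on TNBS. The 56 lower genes had medians of -1.39, -1.24 and -1.48, and 23 were farther from mock on zingerone than on TNBS. For 29 of the 56 lower genes (51.8%) and 11 of the 96 higher genes (11.5%), the 3 TNBS-treated arrays lay within 0.5 log2 of each other, so that the mock array was the one apart. Among the genes named below these include Mt1, Gsr, H2-Aa, Ttr, Apoa2, Uba7 and Ndufb7. Setting aside every probe that was at least 2-fold apart on 1 array in this way left 121 higher, 74 lower and 122 stayed-apart genes.

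**Figure D1:**
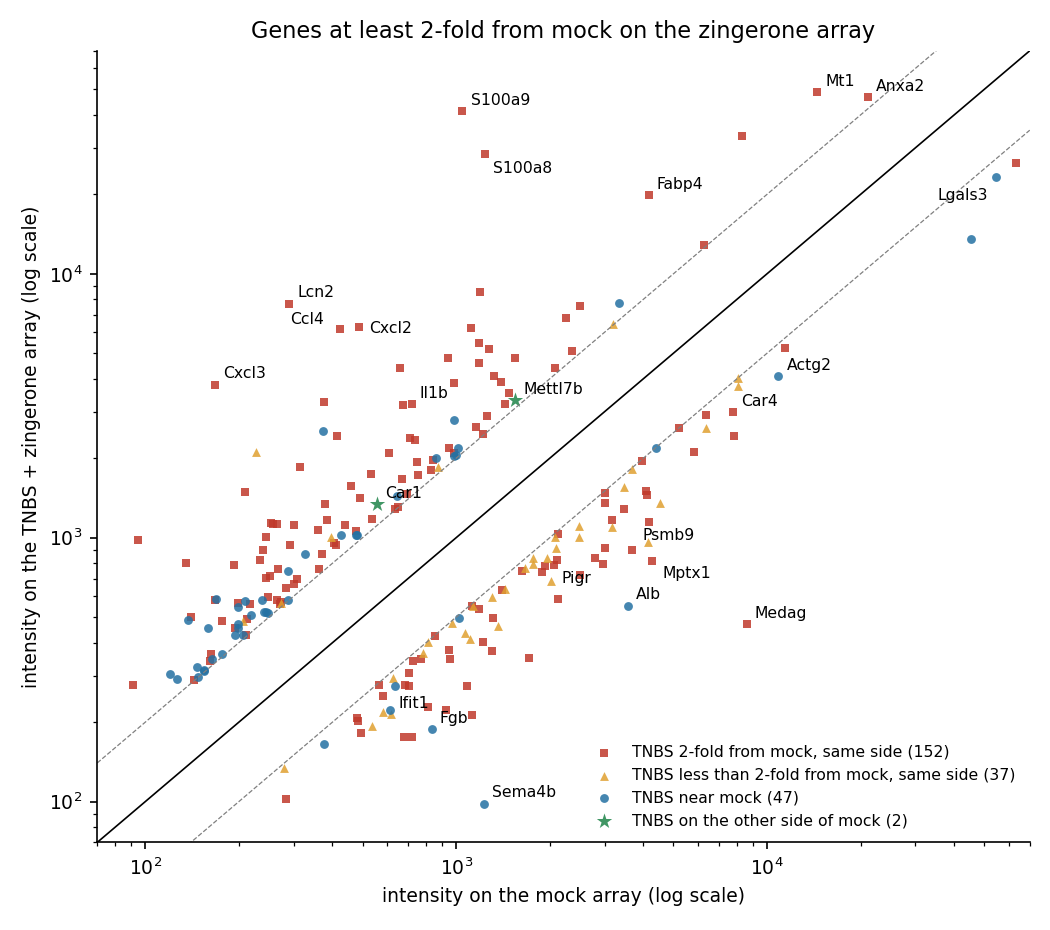
Intensity on the zingerone array against intensity on the mock array (both log scales) for the 238 named genes at least 2-fold apart, 1 point a gene; the solid line marks equal levels and the dashed lines a 2-fold difference. Symbols give the place of the TNBS array relative to mock: 152 genes were 2-fold from mock on the same side, 37 less so, 47 near mock and 2 on the other side. S100a9, S100a8, Lcn2 and Cxcl3 lie farthest above the line and Medag and Sema4b farthest below it.

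Neutrophil genes stood farthest above mock. S100a8 and S100a9 encode the 2 chains of calprotectin, the most abundant protein of the neutrophil cytosol, which binds zinc and manganese. S100a9 was at 1046 on mock, 59656 with TNBS, 51922 with ginger and 41248 with zingerone, a difference from mock of 5.30. S100a8 was at 1234, 43027, 36266 and 28462 on the same arrays, a difference of 4.53. By intensity, both thus had most of their TNBS level on the zingerone array. However, S100a9 was near the top of the scale on TNBS, and S100a8 was also bright. Whether signal is compressed at such levels was not tested, so that share may be overstated. Lcn2, a protein of neutrophils and inflamed epithelium that takes iron from bacteria, was at 290.2, 31578, 8152 and 7700 (4.73). Wfdc21, a WAP-domain protein, was at 376, 26364, 4013 and 3263 (3.12). Lcn2 and Wfdc21 lay further below their TNBS level than calprotectin did and were also more than 2-fold above mock. Their TNBS levels were lower on the scale than those of calprotectin, so the same limit applies to this contrast.

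Of 14 measured neutrophil proteins and receptors, 8 were at least 2-fold higher on zingerone than on mock and none lower, with a median of 1.08, against 0.01 over all measured genes. However, 5 of the 14, with Clec4d, Ifitm6 and Mmp8 among them, reached the named-probe median on zingerone and not on mock, so they entered because they were high there. Over all 19 members with a probe left the median was 0.55, and the same 8 were 2-fold higher. Besides the 4 above these were Clec4d, a receptor for mycobacterial glycolipids (254 on mock and 1134 on zingerone, 2.16), Ifitm6 (244 and 1009, 2.05), the collagenase Mmp8 (162 and 342, 1.08) and the resistin-like hormone Retnlg (2073 and 4387, 1.08). On TNBS these were at 4382, 11084, 4446 and 38461. Some members were near mock: Ltf, which encodes lactoferrin, was at 666 and 599, and the formyl peptide receptor gene Fpr1 at 2237 and 2079. The summed level of the 14 genes was 10133 on mock, 228531 with TNBS, 114358 with ginger and 92062 with zingerone. Most of the sum with ginger and with zingerone was S100a8 and S100a9, so it mainly follows those genes there. In bulk tissue, fewer cells of a type and less RNA per cell cannot be told apart. Csf3r, Ngp, Camp, Mpo and Trem1, also neutrophil genes, did not reach the median on mock or zingerone.

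The CXC chemokines that attract neutrophils through the receptor CXCR2 remained above mock as well. Cxcl3 was at 168 on mock, 37402 with TNBS, 5666 with ginger and 3801 with zingerone (4.50). Cxcl2 was at 487, 39028, 8788 and 6282 on the same arrays (3.69). Cxcl5, which is made by epithelium, was at 301, 13394, 1798 and 1117 (1.89), and Cxcl1 at 437, 23605, 3132 and 1116 (1.35). For these 4 genes the zingerone array was far below TNBS and below ginger, yet each was more than 2-fold above mock. Of the 6 measured members the other 2 were within 2-fold of mock: the platelet chemokine Ppbp (306 and 264) and the receptor Cxcr2 itself (217 and 318). The list's median was 1.62 on zingerone and 5.61 on TNBS. Cxcl3 and Cxcr2 reached the named-probe median on zingerone only, and over all 7 members the median was 1.35.

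The promoters of Cxcl1, Cxcl2 and Cxcl3 are shown because they hold a motif searched for in the promoters of the higher chemokines. They are the 160 bases before the RefSeq start of each gene (GRCm38.p6, plus strand): chr5:90891085-90891244, chr5:90903739-90903898 and chr5:90785941-90786100. Capitals mark matches, on either strand, to GGGA, any 2 bases and TTCC, a form of the site bound by NF-kB.
Cxcl1: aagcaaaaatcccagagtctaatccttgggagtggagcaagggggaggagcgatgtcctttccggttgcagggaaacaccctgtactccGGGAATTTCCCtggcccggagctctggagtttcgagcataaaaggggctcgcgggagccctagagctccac
Cxcl2: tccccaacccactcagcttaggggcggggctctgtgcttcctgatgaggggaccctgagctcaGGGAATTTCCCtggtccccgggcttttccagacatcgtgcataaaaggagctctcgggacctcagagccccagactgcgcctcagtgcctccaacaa
Cxcl3: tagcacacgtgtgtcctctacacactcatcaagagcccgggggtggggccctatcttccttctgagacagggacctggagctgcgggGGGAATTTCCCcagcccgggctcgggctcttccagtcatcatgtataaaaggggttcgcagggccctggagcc
All 3 hold the motif, at the same 11 letters, between 61 and 97 bases before the start. The motif occurs in that window of 0.977% of the 27025 genes of the promoter table, and in 6 of the 104 higher genes that have a promoter there (5.77%). The 3 genes shown are among these 6, so that share rests in part on them. Of the 78 lower genes with a promoter 2 hold it (2.56%). A match describes the letters only, and Cxcl5 had no promoter in the table.

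Among the other chemokines, 3 of 20 measured members were 2-fold higher and 1 lower, with a median of 0.12. Ccl4, a chemokine that draws in macrophages and T cells, was at 422 on mock, 22614 with TNBS, 5262 with ginger and 6198 with zingerone (3.88). Its neighbour Ccl3 was at 209, 1752, 617 and 1486 (2.83), which puts the zingerone array close to TNBS. Ccl9 was at 951, 6583, 2205 and 2190.0 (1.20). The one that was lower, Cxcl10, is induced by interferon and is described with those genes.

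IL-1 genes stayed apart in part. Il1b, the cytokine that inflammasomes activate, was at 719 on mock, 14298 with TNBS, 4222 with ginger and 3196 with zingerone (2.15). Il1r2, a decoy receptor that binds IL-1 without signalling, was at 233, 6346, 917 and 821 (1.82). Il33, an alarmin of epithelium and stroma, was at 404, 2095, 1068 and 955 (1.24). These 3 of 12 measured IL-1 family genes were 2-fold higher, none was 2-fold lower, and the median was 0.30, or 0.19 over all 20 with a probe. Acod1, the macrophage enzyme that makes itaconate, had the same order of arrays as Il1b, at 315, 10858, 2745 and 1849 (2.55). Cd14, the co-receptor for lipopolysaccharide, was at 1322, 28071, 4222 and 4097 (1.63), while the other 15 of 16 measured monocyte and macrophage markers were within 2-fold of mock. The summed level of those 16 was 7994 on mock, 45095 with TNBS, 12644 with ginger and 11879 with zingerone.

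NF-kB genes themselves were near mock. Of 13 measured NF-kB proteins, inhibitors and kinases, none was 2-fold apart, where 2.52% of all measured genes were. With so few genes, none is near that share. The median was 0.10, against 0.40 on TNBS. Nfkb1, the p50 subunit, was at 370 on mock and 413 on zingerone, and Rela, the p65 subunit, at 1020 and 913. Tnfaip3 encodes A20, the enzyme that switches the pathway off and is itself a target of it. It was at 542 on mock, 3326 with TNBS, 848 with ginger and 776 with zingerone (0.52). Nfkbiz was at 651, 3565, 936 and 697 (0.10). The probe of Nfkbia, the main inhibitor, was bright on TNBS alone (13116, against 2475 on mock and 2249 on zingerone) and was set aside. IL-6 family genes also had no member 2-fold apart among 9 measured (median 0.27), with Csf3, which encodes the growth factor of neutrophils, closest to 2-fold at 188 on mock, 1624 with TNBS, 327 with ginger and 374 with zingerone (0.99).

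**Figure D2:**
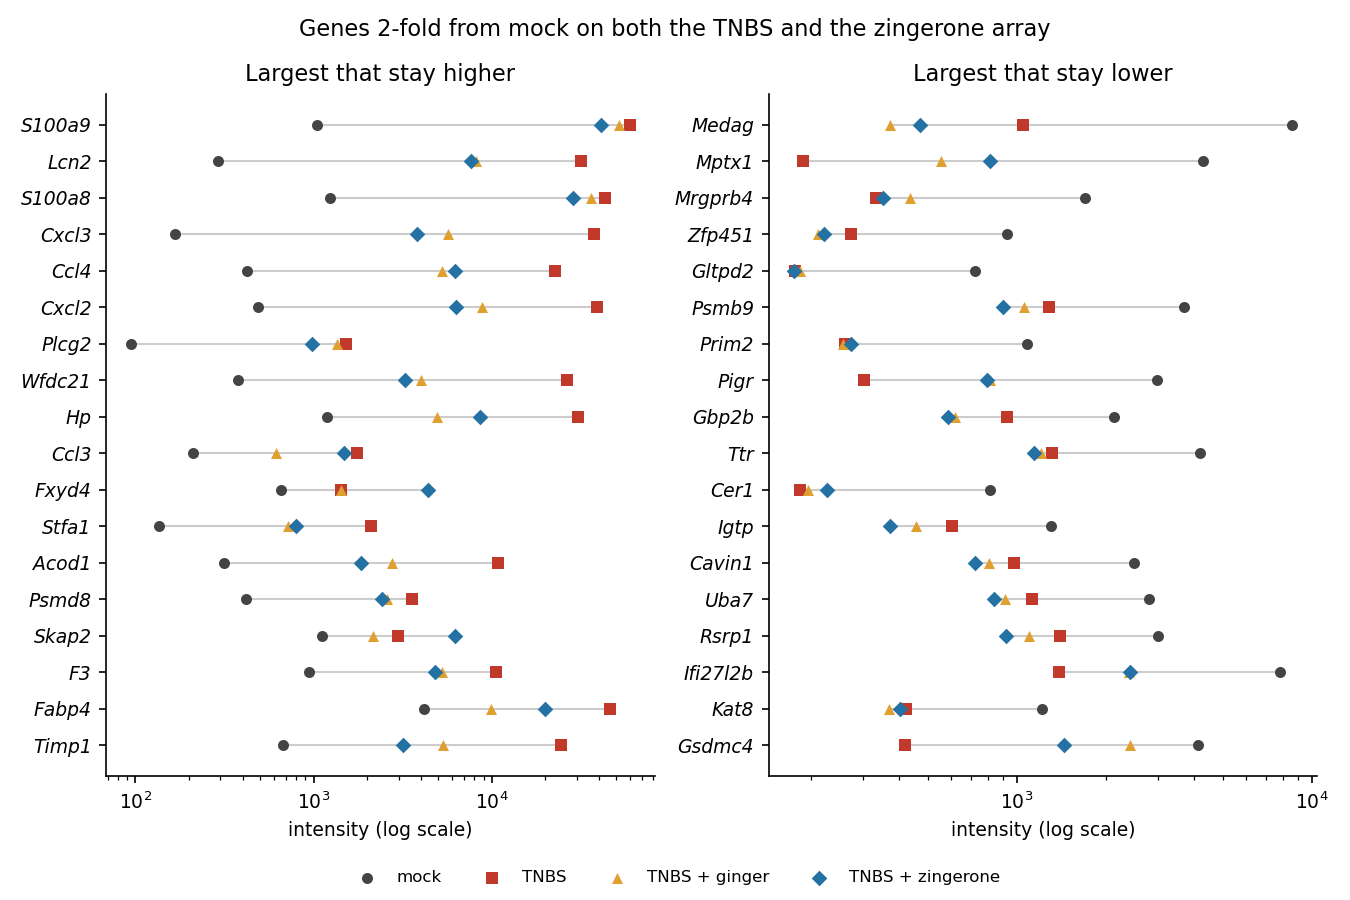
Intensity (log scale) on the 4 arrays, 1 point an array, of the genes with the largest differences from mock among those 2-fold from mock on both TNBS and zingerone: the largest that stayed higher (left) and lower (right). In most genes of the left panel the zingerone point lies between mock and TNBS, while Fxyd4 and Skap2 are higher on zingerone than on TNBS; in the right panel Psmb9, Igtp, Gbp2b and Uba7 are lower on zingerone than on TNBS.

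Wound-edge and protease-control genes made up a further group. Of 23 measured keratins and wound-edge epithelial genes, 7 were 2-fold higher and none lower (median 0.55, and 1.06 on TNBS; 0.48 over all 25 with a probe). F3, tissue factor, which starts coagulation, was at 943 on mock, 10576 with TNBS, 5282 with ginger and 4778 with zingerone (2.34). Plaur, the receptor that holds urokinase at the cell surface, was at 379, 8043, 2176 and 1347 (1.83). Krt7, a keratin of ducts and injured epithelium, was at 2500, 12546, 9716 and 7581 (1.60). Anxa1, Emp1, Il33 and Ereg were the other 4, and Ereg, a ligand of the EGF receptor, had probes at 0.36 and 1.95. The main surface keratins were within 2-fold: Krt8 was at 36534 on mock and 54949 on zingerone, Krt20 at 7648 and 11211, and Krt19 at 19771 and 15336. Timp1, which inhibits matrix metalloproteinases, was at 674, 24360, 5296 and 3168 (2.23). Spp1 (osteopontin) was the 1 of 31 measured collagen and matrix genes that was 2-fold higher (176 and 483, 1.46); the median of that list was 0.30.

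The metallothioneins, which bind zinc and copper, stayed high. Mt1 was at 14466 on mock, 51505 with TNBS, 39028 with ginger and 48876 with zingerone (1.76), and Mt2 at 8324, 60415, 30416 and 33341, which is 4.01-fold above mock. All 13 measured NRF2 and heme response genes were above mock by some amount, where 50.9% of all measured genes were, with a median of 0.57; over all 17 with a probe 15 were, with a median of 0.36. Only the metallothioneins and Gsr were 2-fold. Gsr, glutathione reductase, was at 1476, 3944, 2833 and 3535 (1.26). Hmox1, heme oxygenase, was at 439 on mock and 688 on zingerone (0.65).

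Of 10 measured glucocorticoid-responsive genes, 5 were 2-fold higher and none lower (median 1.08). Over all 15 members with a probe the median was 0.19. Mt1, Mt2 and Lcn2 are among them and also answer to inflammation. Fkbp5, a chaperone of the glucocorticoid receptor, was at 708 on mock, 2189 with TNBS, 1260 with ginger and 2390 with zingerone (1.75). Dusp1, a phosphatase that switches MAP kinases off, was at 533, 13198, 2209 and 1749 (1.71). Fkbp5 was thus highest on zingerone, while Dusp1 was highest on TNBS. Sgk1 (637 and 725), Klf9 (371 and 340) and Hsd11b1 (473 and 620) of the same list were within 2-fold, and Tsc22d3 was not measured.

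Of the fat genes, 2 were 2-fold above mock and the others were nearer to it. Fabp4, the fatty acid carrier of adipocytes and macrophages, was at 4160 on mock, 45906 with TNBS, 9969 with ginger and 19855 with zingerone (2.26). The hormone gene Lep was dim, at 144 and 289 on mock and zingerone (1.01). Of 13 measured adipocyte genes these 2 were 2-fold higher. By some amount 12 were above mock, where 50.9% of all measured genes were. The median was 0.38, and 0.28 over all 14 with a probe, while the measured reference genes also had a median of 0.28. Adipoq was at 518 and 585. Their summed level was 15198 on mock, 70449 with TNBS, 21025 with ginger and 34551 with zingerone. Fabp4 was the largest part of it on each array with TNBS. How much fat was taken with the tissue was not tested.

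Other single genes stayed well above mock. Plcg2, a phospholipase that signals below immune receptors, was dim on mock at 94 and at 1514, 1350 and 978 on the treated arrays (3.37). Hp, haptoglobin, which binds free hemoglobin, was at 1195, 30534, 4949.8 and 8544 (2.84), higher with zingerone than with ginger. Stfa1, an inhibitor of cathepsins in myeloid cells, was at 135, 2107, 718 and 802 (2.57). Aldh1a3, which makes retinoic acid, was at 1180.5, 9804, 5822 and 5460.0 (2.21). Psmd8, a subunit of the proteasome cap, was at 415, 3569, 2598 and 2422 (2.55), the 1 of 32 measured proteasome genes that was 2-fold higher. In all 5 the zingerone level lay between mock and TNBS.

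Smaller differences upward came from several lists. Of 19 measured immediate early genes 3 were 2-fold higher and none lower (median 0.30, and 0.22 over all 29 with a probe): Dusp1, the survival gene Ier3 (1435, 16498, 6339 and 3200, 1.16) and the nuclear receptor Nr4a1 (272, 2304, 693 and 562, 1.05). Ptgis, which makes prostacyclin, was the 1 of 8 measured prostaglandin genes at 2-fold (268, 1730, 773 and 759, or 2.84-fold above mock). Adamts4, which cleaves aggrecan, was at 194, 1676, 511 and 453 (1.23). Cldn4, a sealing claudin, was at 1219, 4422, 2495 and 2481 (1.03), and Pdpn, podoplanin of fibroblasts and lymphatic vessels, at 693, 3408, 1451 and 1464 (1.08). Nfil3, a repressor of the clock's output genes, was at 212, 686, 414 and 490.2 (1.21). These genes were all highest on TNBS.

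Some stayed-apart genes were higher on zingerone than on all 3 other arrays. Of the 96 higher genes, 13 were farther from mock on zingerone than on TNBS. Dbnl (2.12), Bcl6b, Palmd and Fkbp5 were among these, as were the examples that follow. Fxyd4, a regulator of the sodium pump in colon and kidney, was at 658 on mock, 1427 with TNBS, 1432 with ginger and 4413 with zingerone (2.75). Skap2, an adaptor in leukocyte adhesion, was at 1119, 2960, 2168 and 6206 (2.47). Acta1, skeletal muscle actin, was at 265, 769, 547 and 1122 (2.08), the only 2-fold gene of 5 measured skeletal muscle genes. Each rests on 1 probe.

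Of all the lists, the interferon-stimulated genes had the lowest median. Interferons act through STAT and IRF factors and switch on these genes, which block viruses and, through the immunity-related GTPases and the immunoproteasome, intracellular microbes. Of 26 measured members none was 2-fold higher and 8 were 2-fold lower, and 24 were below mock by some amount, where 48.9% of all measured genes were. The median was -0.75 on zingerone and -0.57 on TNBS. Of the 26, 8 reached the named-probe median on mock and not on zingerone, 2 of the lower genes among them; over all 27 with a probe the median was also -0.75. The mock array held the highest level of 21 of the 26 genes, and the zingerone array held the lowest of 15 and the ginger array of 8. The summed level was 24259 on mock, 19722 with TNBS, 13880 with ginger and 13207 with zingerone.

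Of the 8 lower genes, the 5 whose promoter holds the motif searched for are shown. Capitals mark matches on either strand to GAAA, any 2 bases and GAAA, the core of the interferon-stimulated response element. They are the 160 bases before the start in RefSeq (GRCm38.p6): Ifit1 chr19:34640729-34640888, Ifit3 chr19:34583369-34583528, Gbp2 chr3:142620503-142620662 and Igtp chr11:58199396-58199555 on the plus strand, and Isg15 chr4:156200819-156200978 on the minus strand.
Ifit1: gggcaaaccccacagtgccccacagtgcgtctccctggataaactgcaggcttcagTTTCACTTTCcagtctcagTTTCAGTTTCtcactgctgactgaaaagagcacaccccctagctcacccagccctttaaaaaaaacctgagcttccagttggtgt
Ifit3: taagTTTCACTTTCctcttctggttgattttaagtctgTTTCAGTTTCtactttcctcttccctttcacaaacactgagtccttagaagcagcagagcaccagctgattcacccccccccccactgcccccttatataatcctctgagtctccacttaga
Isg15: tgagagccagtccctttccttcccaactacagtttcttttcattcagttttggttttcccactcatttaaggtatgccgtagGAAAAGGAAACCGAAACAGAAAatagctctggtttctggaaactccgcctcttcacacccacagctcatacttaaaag
Gbp2: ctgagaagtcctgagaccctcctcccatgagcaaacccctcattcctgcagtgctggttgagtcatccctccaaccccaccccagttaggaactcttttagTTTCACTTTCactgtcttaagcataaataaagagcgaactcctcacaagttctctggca
Igtp: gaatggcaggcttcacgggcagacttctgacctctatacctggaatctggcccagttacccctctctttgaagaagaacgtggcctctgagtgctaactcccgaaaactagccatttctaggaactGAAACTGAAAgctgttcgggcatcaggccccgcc
Of the 8 lower genes 7 had a promoter in the table, so the share with the motif is 71.4%. It is in 11 of the 22 measured interferon-stimulated genes with a promoter (50%) and in 2% of all genes of the table. Among all 2-fold lower genes 6 of 78 hold it (7.69%). The 5 genes shown are among these 6, so that share rests mostly on them. Of the higher genes 3 of 104 hold it (2.88%).

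Psmb9, an immunoproteasome subunit, was at 3683 on mock, 1290 with TNBS, 1056 with ginger and 898 with zingerone (-2.04). Its partner Psmb8 had probes at -1.28 and -0.68. Igtp, a GTPase that acts on vacuoles with parasites, was at 1306, 605, 455 and 373 (-1.81). Gbp2, a guanylate-binding protein, was at 1367, 890, 543 and 464 (-1.56). In Psmb9, Igtp and Gbp2 mock was highest, followed by TNBS, ginger and zingerone. Ifit1, which binds viral RNA lacking host caps, was at 615, 378, 265 and 214 (-1.53), in the same order. Isg15, a ubiquitin-like protein, was at 1066, 719, 321 and 434 (-1.30), and its activating enzyme Uba7, not on the list, at 2797, 1128, 912 and 839 (-1.74). Ifit3 was at 768, 278, 186 and 346 (-1.15) and Ifi44 at 949, 345, 178 and 375 (-1.34), both lowest on ginger. Cxcl10, which recruits T cells through CXCR3, was at 583, 315, 218 and 219 (-1.41).

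Irf1, the transcription factor through which interferon gamma switches on Psmb9 and the guanylate-binding proteins, was at 2476, 1376, 1248 and 1108 (-1.16); it was named after its values were seen. Iigp1 had 1 bright probe, at 2264, 564, 370.2 and 371 (-2.61), and 1 near background, at -0.32. The probe of Irgm2 was bright on mock alone (2062, against 353 on TNBS, 496 on ginger and 406 on zingerone) and was set aside by the rule. Not every member was lower: Isg20 was at 741 on mock and 1134 on zingerone (0.61), Bst2 at 1691 and 1504, and Rsad2 at 701 and 664. Whether the mock colon or the TNBS-treated colons had an unusual interferon level cannot be told apart with 1 mock array.

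**Figure D3:**
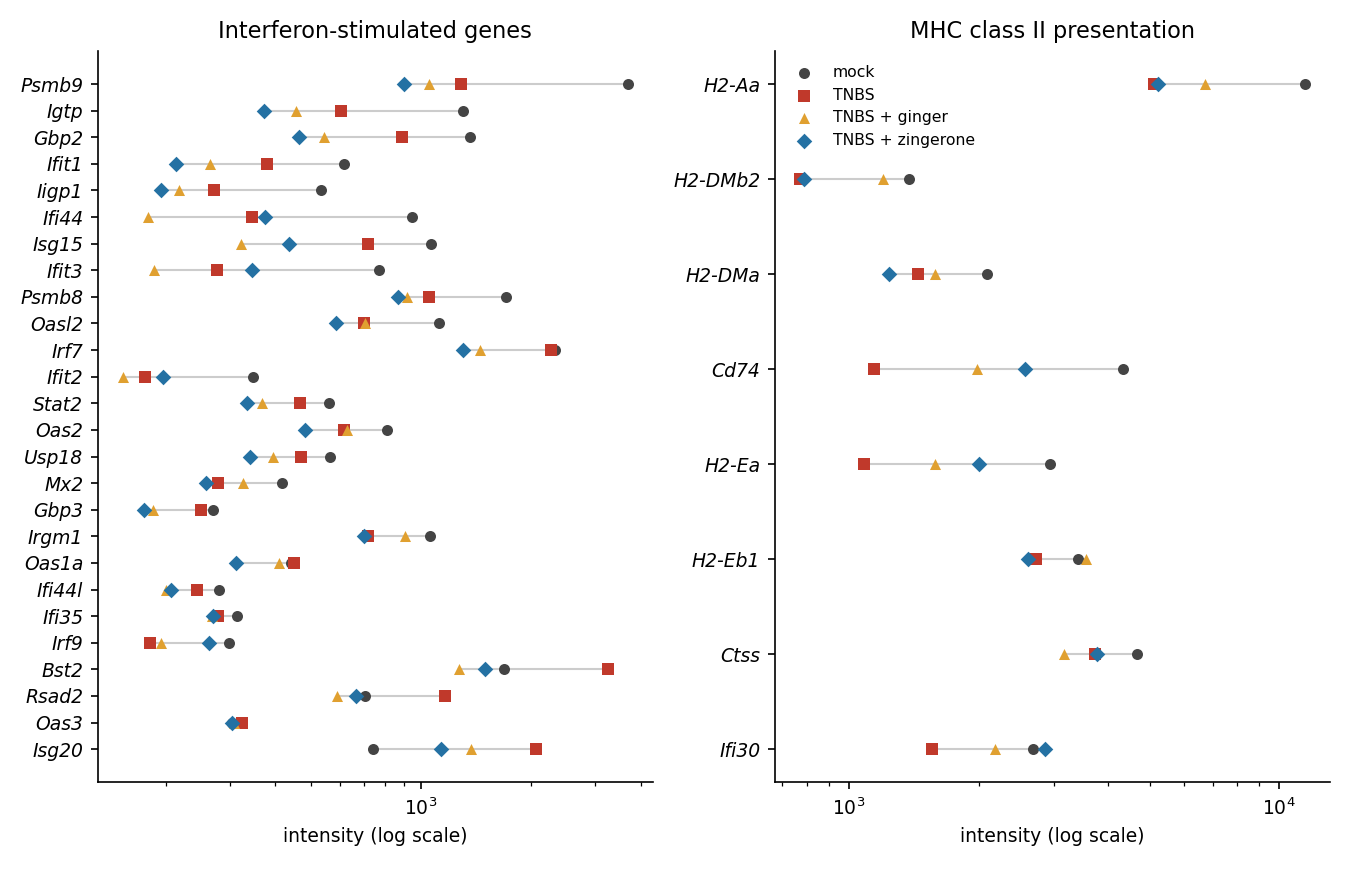
Intensity (log scale) on the 4 arrays, 1 point an array, for the 26 measured interferon-stimulated genes (left) and the 8 measured MHC class II genes (right), ordered by their difference between zingerone and mock. The mock point is the rightmost for 21 of the 26 and 6 of the 8 genes, and the zingerone point is the leftmost for 15 and 2.

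MHC class II genes, which present antigen to helper T cells and are also induced by interferon gamma, were mostly below mock. H2-Aa was at 11456 on mock, 5120 with TNBS, 6719 with ginger and 5242 with zingerone (-1.13). It was the 1 of 8 measured members that was 2-fold lower, and 7 were below mock by some amount, where 48.9% of all measured genes were. The median was -0.65, or -0.39 over all 11 with a probe. Cd74, the invariant chain, was at 4324, 1141, 1979 and 2560 (-0.76), so it was higher on zingerone than on TNBS. Markers of lymphocytes were lower by less: the 11 measured T and NK cell markers had a median of -0.25. None was 2-fold apart, where 2.52% of all measured genes were. Their summed level was 5420 on mock, 5446 with TNBS, 5808 with ginger and 4733 with zingerone. The 9 B and plasma cell markers had a median of -0.29 and sums of 15954, 10576, 12846 and 14226. The part of these cells in the interferon and MHC differences was not tested.

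Some epithelial genes were well below mock. Pigr carries IgA across the epithelium into the lumen. It was at 2977 on mock, 302 with TNBS, 814 with ginger and 792 with zingerone (-1.91). Mptx1, a pentraxin of the mucosa, was at 4270, 188, 553 and 812 (-2.39). Gsdmc4, a gasdermin of the colon surface, was at 4101, 416, 2414 and 1446 (-1.50). Atp12a, the colonic proton-potassium pump, was at 3174, 871, 1427 and 1164 (-1.45), and Car4, a carbonic anhydrase of the surface membrane, at 7778, 968, 1915 and 2981 (-1.38). All 5 were higher on zingerone than on TNBS and remained at least 2-fold below mock. Ifi27l2b (7822, 1388, 2399 and 2420, -1.69) had the same pattern.

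The absorptive and goblet cell lists as a whole were nearer to mock. Of 29 measured colonocyte genes 2 were higher and 2 lower (median -0.06, and -0.77 on TNBS), with a summed level of 118186 on mock, 56011 with TNBS, 78657 with ginger and 120963 with zingerone. Of 20 goblet cell genes 1 was lower, the secretory factor Creb3l1 (1659, 1022, 1422 and 770, -1.11), and the median was -0.26, against -0.96 on TNBS. The brightest probe of the mucin gene Muc2 was at 9640 on mock, 3420 with TNBS, 9446 with ginger and 6773 with zingerone, and its other 3 probes were dim and differed in sign. The brightest probe of Clca1, a protease that processes mucus, was at 23980 on mock and 7487 on zingerone (-1.68); the mean of its 3 probes was -0.86. Respiratory chain genes were below mock for 34 of 42 members, where 48.9% of all measured genes were, but by little (median -0.21, against -1.04 on TNBS). Only Ndufb7 was 2-fold lower (2128, 814, 988 and 1034).

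Medag had the largest difference below mock of all measured genes. This gene of fat cell development was at 8597 on mock, 1053 with TNBS, 371 with ginger and 472 with zingerone (-4.19), opposite to Fabp4 and Lep. Several other large negative differences belong to genes for which the 3 TNBS-treated arrays were alike. Gltpd2 was at 722 on mock and between 175 and 184 on the others, Prim2 at 1086 and between 258 and 273, and Cer1 at 814 and between 184 and 228. Cavin1, which shapes caveolae, had 1 probe at 19330 on mock and 1630.2 on zingerone (-3.57) and another at 323 and 321. Mrgprb4, a receptor of touch-sensing neurons, was at 1709, 333, 435 and 350.5 (-2.29). Mcpt1, a protease of mucosal mast cells, was at 484, 196, 212 and 202 (-1.26), the 1 of 3 measured mast cell genes that was 2-fold lower.

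Some genes of plasma proteins were below mock. Alb, albumin, was at 3566 on mock, 3412 with TNBS, 819 with ginger and 553 with zingerone (-2.69), and Fgb, a fibrinogen chain, at 833, 1072, 254 and 189 (-2.14). These proteins are made chiefly by the liver. Ttr, which carries thyroid hormone and retinol, was at 4169, 1316, 1210 and 1146 (-1.86), and Apoa2 at 707, 327, 330.2 and 308 (-1.20), so for these TNBS alone was low as well. Of 9 measured plasma protein genes 4 were 2-fold lower, none higher, and the median was -0.48; over all 12 with a probe it was -0.42. The other measured members were nearer to mock, and Ahsg, another liver protein, was above it (470 and 602). The summed level of the 9 was 11261, 7955, 4145 and 4034. The source of these transcripts was not tested.

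Some smooth muscle genes were below mock. Myh11, the smooth muscle myosin heavy chain, was at 3172 on mock, 1934 with TNBS, 1887 with ginger and 1096 with zingerone (-1.53). Actg2, enteric actin, was at 10858, 8531, 9174 and 4091 (-1.41), and Smtn at 1927, 488, 925 and 781 (-1.30). Of 16 measured members these 3 were 2-fold lower, and 15 were below mock by some amount, where 48.9% of all measured genes were. The median was -0.39, against -0.28 on TNBS. The zingerone array held the lowest level of 10 of the 16 and TNBS of 5, Smtn among these. Over all 21 members with a probe the median was -0.31. The summed level was 57340 on mock, 62080 with TNBS, 59058 with ginger and 38900 with zingerone, while Myl9 (5408 and 5476) and Csrp1 (5806 and 5616) were close to mock. How much of the muscle layer each sample held was not tested.

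**Figure D4:**
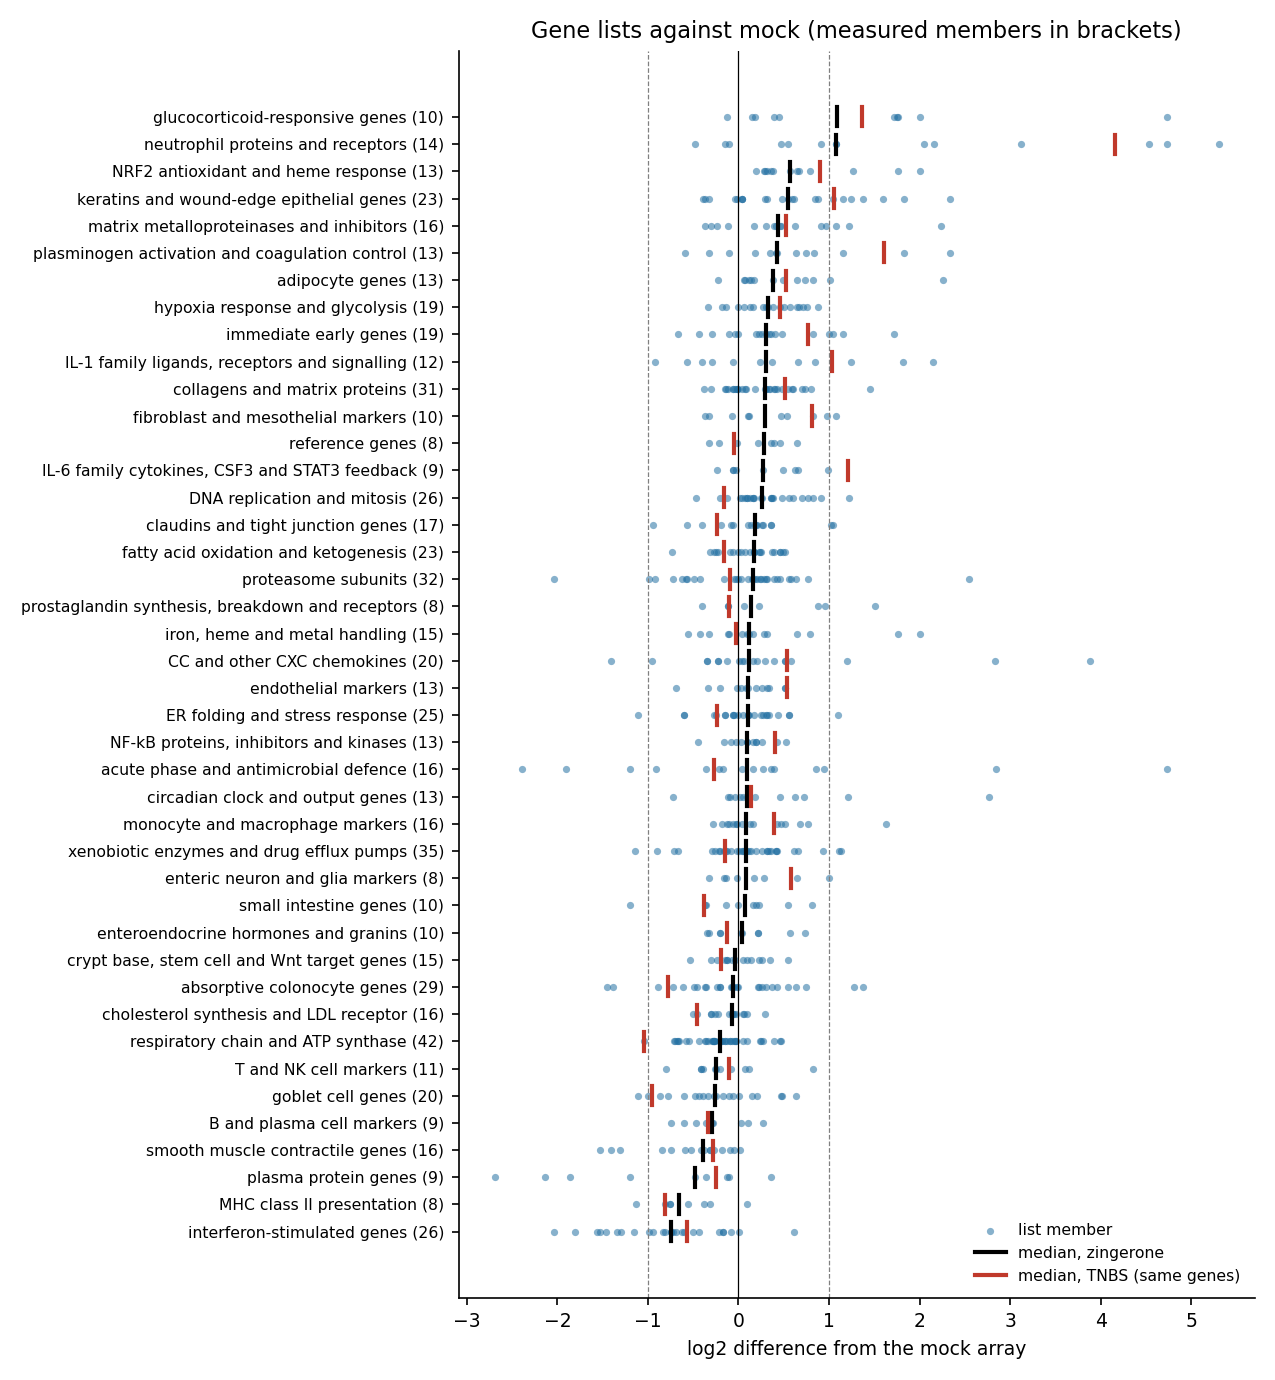
Log2 difference from mock of the measured members of the gene lists, 1 point a member for zingerone, with the median of the list on zingerone (black bar) and the median of the same genes on TNBS (red bar); dashed lines mark 2-fold. The neutrophil list has a median of 1.08 on zingerone and 4.16 on TNBS, and the interferon-stimulated genes have medians of -0.75 and -0.57.

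Another 47 genes were 2-fold from mock on zingerone while TNBS alone was near mock, and 37 lay between. The largest difference of this kind upward was that of Mex3d, an RNA-binding protein, at 227 on mock, 363 with TNBS, 286 with ginger and 2105 with zingerone (3.21). The clock repressor gene Nr1d2 had 1 probe at 719, 772, 1044 and 37402 (5.70) and another, dim, at 194, 142, 151 and 172 (-0.17). The gene's mean thus does not describe either. Mex3d and this bright probe of Nr1d2 were bright on zingerone alone. They stayed in the counts only because their other 3 arrays spanned more than 0.5 log2, so the rule did not set them aside. Cenpa, the histone of the centromere, was at 861, 1014, 1421 and 2012 (1.22). It was the only 2-fold gene of 26 measured replication and mitosis genes, of which 18 were highest on zingerone. By some amount 23 were above mock, where 50.9% of all measured genes were. The median was 0.26, against -0.16 on TNBS, and 0.16 over all 33 with a probe. The measured reference genes had a median of 0.28. Plk1, a mitotic kinase, was at 1244, 1111, 2117 and 2340.1 (0.91). Cldn15, which forms sodium channels between epithelial cells, was at 984, 813, 1550 and 2036 (1.05). Gsta4, which detoxifies lipid aldehydes, was at 1015, 1213, 2114 and 2190.0 (1.11). Herpud1, a protein of the ER quality control, was at 475, 548, 521 and 1020.2 (1.10), the 1 of 25 measured ER genes that was 2-fold higher; Creb3l1 of the same list was 2-fold lower.

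Downward, Sema4b, a membrane semaphorin, was at 1226 on mock, 1458 with TNBS, 156 with ginger and 98 with zingerone (-3.64), the second largest negative difference. Lgals3, the lectin galectin-3 of epithelium and macrophages, was near the top of the scale at 54479, 57220, 36993 and 23212 (-1.23); it was named after its values were seen. Mrps6, of the mitochondrial ribosome, was low on zingerone alone, at 4129, 2586, 4987 and 964 (-2.10), as was Herc2, a ubiquitin ligase, at 45416, 46291, 51505 and 13599 (-1.74). Upp1, uridine phosphorylase, was at 4532, 3023, 1089 and 1353 (-1.74) and low on both ginger and zingerone. Glycam1, a ligand of L-selectin, was at 2022, 1308, 1315 and 685 (-1.56). Duoxa2, which matures the dual oxidase of the epithelium, was at 2095, 1395, 1048 and 917 (-1.19), and Fabp1, a fatty acid carrier of the proximal gut and liver, at 376, 325, 190 and 165 (-1.19).

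Few genes went past mock. Mettl7b was at 1550 on mock, 536 with TNBS, 1916 with ginger and 3330 with zingerone (1.10), and Car1, the cytosolic carbonic anhydrase of surface colonocytes, at 555, 357, 660 and 1344 (1.28). With a smaller step past mock allowed, 10 genes, Mettl7b included, were 2-fold from mock on TNBS and at least 0.5 log2 past mock on the other side on zingerone, 9 of them above and 1 below mock. Guca2a, guanylin, which drives chloride and water secretion, was at 20660, 2772, 14803 and 34596 (0.74). Slc26a3, the chloride-bicarbonate exchanger of the surface, was at 2377, 418, 1145 and 3704 (0.64). Cdx2, the transcription factor of intestinal identity, was at 564, 257, 487 and 988 (0.81), and Alad, an enzyme of heme synthesis, at 4135, 1782, 3330 and 7864 (0.93). For these 4 genes ginger stayed below mock and zingerone was the highest of the arrays. The 1 below mock was C3, a complement component, at 2847, 8509, 3460 and 1512 (-0.91).

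**Figure D5:**
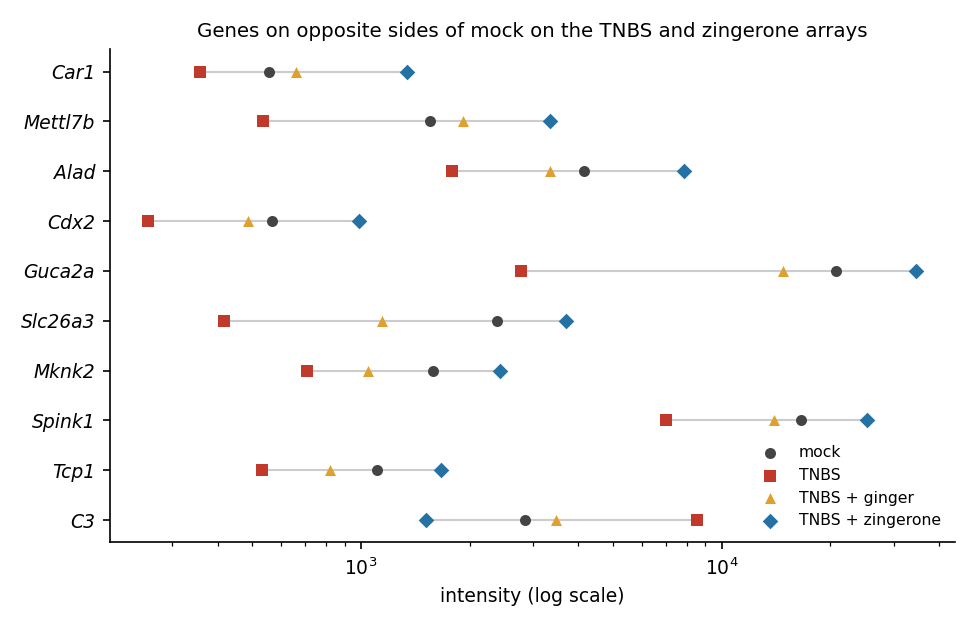
Intensity (log scale) on the 4 arrays, 1 point an array, for named genes that lay on opposite sides of mock on TNBS and on zingerone. In all but C3 TNBS is the lowest array and zingerone the highest; Guca2a runs from 2772 on TNBS to 34596 on zingerone with mock at 20660.

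Several lists had no member 2-fold from mock. Over all measured genes 2.52% were 2-fold apart, so lists this short would often hold none. These were the hypoxia and glycolysis genes (19 measured, median 0.33), the fatty acid oxidation enzymes (23, median 0.17), the cholesterol synthesis enzymes (16, median -0.07), the crypt base and Wnt target genes (15, median -0.04), the enteroendocrine hormones and granins (10, median 0.04) and the endothelial markers (13, median 0.10). Hif1a, not on the hypoxia list, was 2-fold higher, at 2351, 6699, 3568 and 5094 (1.12), and was named after its values were seen. The 8 measured reference genes ranged from -0.33 to 0.65 with a median of 0.28, so differences of that size occurred in genes commonly taken as constant. Not all were constant here: Pgk1, the highest, is also on the hypoxia and glycolysis list, and B2m, the lowest, was 0.72 above mock on TNBS.

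Support from second probes was thin. Only 7 of the 238 genes have several probes; 6 of these had probes of one sign, and in none was every probe 2-fold. Over 1629 measured genes with 2 probes, 50 had a probe 2-fold apart; the other probe had the same sign in 29 and was 2-fold the same way in 0, and in 18 it was below the median on both arrays. The median gap between 2 probes of a gene was 0.30 log2. At the 2-fold threshold, Gal (652 and 1305), Stard10 (5227 and 2606) and Lacc1 (3677 and 1828) lay just inside, and Egr1 (410.5 and 820.5), Ssh3 (712 and 1421) and Klk1 (36057 and 18062) just outside.

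A probe was set aside where 1 array was 4-fold or more from its nearest neighbour while the remaining 3 arrays lay within 0.5 log2; 43 named probes met this. On zingerone 7 were bright and 1 dim. An olfactory receptor gene aside, the brightest were Cdk19, at 9272 and at most 318 on the other arrays, and Dcaf17, at 5716 and at most 160.5; the dim one was Tmem258, at 121 against 3724 on mock. On mock 8 were bright and 7 dim, among them Slc26a1 (8113 on mock and 181 on zingerone), Trp53bp1 (8095 and 244) and Pomgnt1 (9572 and 754), which were bright there, and Fmc1 (86 and 5388) and Cyb5r3 (139 and 2311), which were dim. None of these enters the counts above, and every probe of 27 genes was lost in this way.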

How the data were processed

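Gene expression was measured on 4 one-colour arrays, 1 per group. The labels state 5 µg of total RNA per amplification and Cy3 as the dye. The deposited values are linear intensity. Of software, limma alone is named in the submitters' processing notes, without version; background handling and normalization are not stated there. The sorted values of the arrays differ by at most 1.84%, as after quantile normalization, and run from 74.2 to 64634, with a lower quartile of 165 on mock.

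The platform annotation gives 1 symbol for 21020 of 29922 probes, none has several and 8902 have none. Through the RefSeq gene table (GRCm38.p6), 17558 symbols were current, 3410 were updated and 52 were kept. No coordinates of probes are given, since no build is stated. Named probes were taken to log2 with no pseudocount, probes apart on 1 array were set aside, and the rest were averaged per gene. Promoters came from the RefSeq table of 32851 promoters, searched over 160 bases before the start. Python 3.11.15 with numpy 2.4.6 and pandas 2.3.3 was used, and the steps were tested on simulated data.

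With 1 array per group no test was made. The members and the 50 gene lists were chosen with earlier results of these data known. Genes named were drawn from the 25 largest differences each way and the 15 largest of each class and direction. The members of a list at 2-fold, the 3 largest of each list and 10 further genes were also drawn on. Not all of these are described above, with Zfp451 (-2.06) and Rsrp1 (-1.72) among those left out. Symbols that describe no gene and olfactory and vomeronasal receptors were skipped. Others, such as Irf1, Lgals3 and members near mock given for contrast, were named after their values were seen. The 10 alternatives changed normalization, background, filter, choice of probes and probes set aside.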

Additional observations from a re-analysis of the deposited data

Results flagged for a closer look

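Probes with no gene symbol were outside the comparison of named genes and also carried differences between zingerone and mock. Of 2795 such probes measured by the same rule, 57 were at least 2-fold higher and 28 at least 2-fold lower, 3.04% together, against 2.52% of the named genes. The largest upward were mMR029831, at 555 on mock, 3535 with TNBS, 3080 with ginger and 4813 with zingerone, and mMR026157, at 526, 1858, 1718 and 4556. The largest downward were mMC014586, at 606, 148, 163 and 145, and mMC009161, at 992, 202, 201 and 261. They are named by their probe identifiers because the annotation used here pairs them with no gene. No group holds enough arrays for a check of single arrays within a group.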

How the results depend on the processing

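Renewed quantile normalization, equal medians, a floor at the 25th percentile, both filters on dim genes and both treatments of probes apart on 1 array kept every count of genes within 1.5 times its value. Subtracting each array's 5th percentile, with a floor of 50, gave 349 genes higher, 185 lower, 264 that stayed apart, 23 that overshot and 247 with TNBS near mock or between, against 140, 98, 152, 2 and 84. With genes of 2 or more probes of one sign only, these were 3, 3, 4, 0 and 2, since few genes have several probes. The brightest probe per gene gave 4 that overshot. List medians changed sign for red blood cell genes under subtraction (0.14), and with several probes of one sign for CC and other CXC chemokines (-0.19), fatty acid oxidation (-0.28) and proteasome subunits (-0.93), each over few genes. Of the named genes, Ereg (0.97) and Lep (0.81) came under 2-fold with the floor at the 25th percentile; 17 values newly reached 2-fold under some setting. No paired analysis was possible because each group has 1 array. With 1 array a side, neither biological nor technical spread is known, and signal near background limits what dim genes can show.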
